A study of Mus musculus with 2 samples.

Results

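Pericentral spots were the spots of each liver section with the strongest central vein signature, and their expression in the HFD section was compared with that in the NCD section. A spot is a small printed capture area of the 10x Visium slide that binds the polyadenylated RNA of the tissue lying on it, and it holds several cells. Spots over tissue with at least 3000 UMIs (unique molecular identifiers, each marking 1 captured RNA molecule) were ranked within each section by log2 of the summed UMIs of Cyp2e1, Cyp1a2, Oat and Glul plus 1, over the summed UMIs of Cyp2f2, Hal, Sds and Gls2 plus 1. The members were thus chosen by measured values, the UMIs of these 8 genes: the top 20% of spots formed the pericentral set, which held 421 of the 2107 spots kept in the NCD section and 707 of the 3538 spots kept in the HFD section, 1128 of 5645 spots in all. The remaining 80% of spots kept, 1686 in NCD and 2831 in HFD, are called the other spots.

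Each section came from 1 male C57BL/6J mouse. The NCD mouse had received a normal chow diet and the HFD mouse a high-fat diet, in both cases for 14 weeks, followed by 8 weeks of daily water by mouth as the vehicle. The livers were fresh-frozen and cut at 10 µm; whether they were perfused first is not given for these sections in the sources used here. With 1 section per diet there was no replicate, so no test was possible, and diet, animal, section and slide area cannot be told apart. Every interval below is a 95% interval for counting error only.

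Blood enters the liver lobule at the portal vein and leaves it at the central vein, and hepatocytes change their work along this path. Hepatocytes beside the central vein receive Wnt ligands from the endothelium of the vein, make glutamine from leftover ammonia and carry most of the cytochrome P450 enzymes that oxidise drugs and toxins, while periportal hepatocytes make urea and glucose.

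The sections differed in technical quality. The pericentral spots held 5261810 UMIs in NCD and 13932529 in HFD, with a median of 10105 and 18878 UMIs per spot. The minimum of 3000 UMIs left out 42.9% of the NCD spots over tissue and 1.56% of the HFD spots. Spots off tissue, which should hold little, had a mean of 5285 UMIs in NCD, 42.3% of the mean of an NCD pericentral spot, and a mean of 1557 UMIs in HFD, 7.90% of the mean of an HFD pericentral spot. The part of depth and of off-tissue RNA in the results cannot be told apart from that of diet. For results that they touch, values are also given with every spot drawn down at random to 3000 UMIs before scoring (below, after drawing down) or with the mean off-tissue profile subtracted. After drawing down, 73.6% of the NCD and 72.6% of the HFD pericentral spots were chosen again. Mitochondrially encoded genes took 7.35% of pericentral UMIs in NCD and 4.99% in HFD. The labels also name a hematopoietic stem cell line and immune cells, which the counts did not show as the main content: in pericentral spots the hepatocyte gene Alb stood at 39286 CPM (counts per 1000000 UMIs) in NCD and 43191 CPM in HFD, while Ptprc, carried by all white blood cells, stood at 4.56 and 10.3 CPM, and Cd34, a stem cell and vessel marker, at 0.760 and 2.08 CPM.

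**Figure D1:**
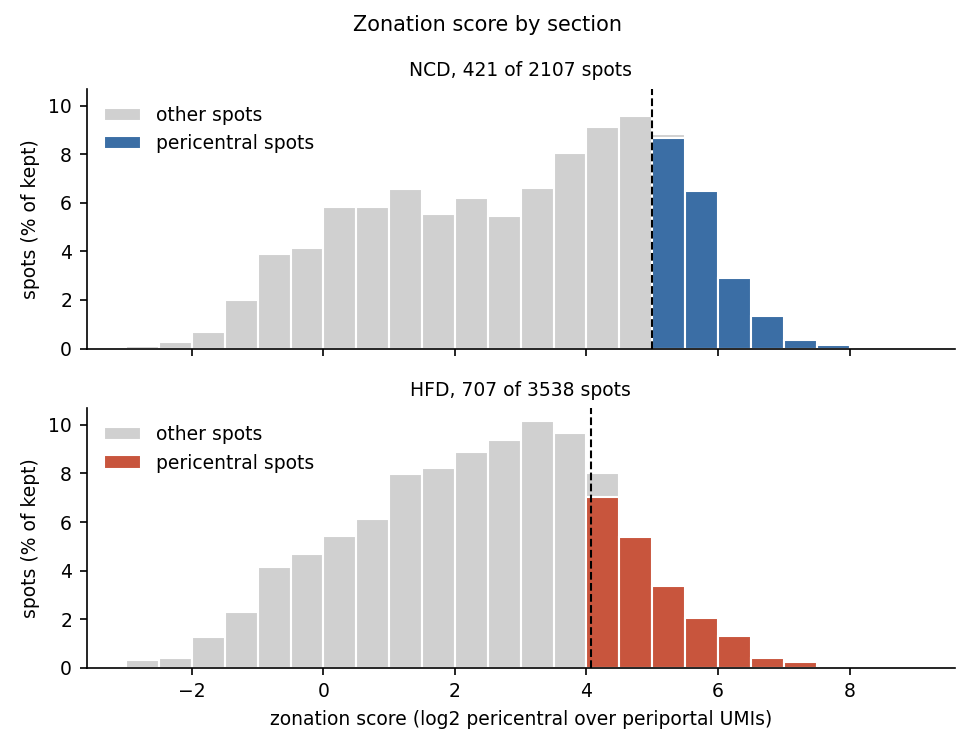
Share of the spots kept (vertical axis, percent) by zonation score (horizontal axis, log2 of pericentral over periportal UMIs) in the NCD section (top) and the HFD section (bottom); coloured bars are the pericentral spots and the dashed line is the cut at the top 20%. The cut fell at a score of 5.0 in NCD and 4.06 in HFD, so the HFD set reached lower scores.

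The genes that chose the spots are given as a description. Cyp2e1, which oxidises ethanol and acetaminophen, stood at 12548 CPM in pericentral spots of NCD and 9012 CPM in HFD. Glul, the glutamine synthetase of the cells that touch the central vein, stood at 1912 and 1266 CPM. Oat, which feeds ornithine into glutamate, stood at 4809 and 2574 CPM. All 3 markers were lower in the HFD section. Over 18 alternative ways of processing, the log2 ratio of HFD to NCD of Glul in these spots ran from -1.13 to 0.03. It kept its sign in 17 of them, and those of Cyp2e1 and Oat kept theirs in all 18. Cyp1a2, the caffeine-oxidising P450 under control of the aryl hydrocarbon receptor, showed the widest gap of the 4 pericentral score genes, with 857 CPM in NCD and 153 CPM in HFD. By the way the spots were chosen, these genes were higher in pericentral than in other spots: the log2 ratio of pericentral to other spots (below, the zone gradient) was 0.96 in NCD and 1.33 in HFD for Cyp2e1, and 2.33 and 2.53 for Glul. Of the periportal genes of the score, Cyp2f2 had 144 CPM in pericentral and 592 CPM in other spots of NCD, against 192 and 730 CPM in HFD. The 20 spots just inside the cut had a pooled Cyp2e1 level of 12072 CPM in NCD and 7055 CPM in HFD, and the 20 just outside had 11377 and 8039 CPM. For Glul these levels were 2037 CPM inside and 1485 CPM outside in NCD, and 579 and 815 CPM in HFD.

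Pericentral genes that the score did not use were lower in HFD in part. Slc1a2, the glutamate transporter of central vein hepatocytes, had 390 CPM in NCD and 236 CPM in HFD pericentral spots, and Rhbg, an ammonium carrier, 63.3 and 45.2 CPM. Lhpp, a histidine phosphatase, had 202 and 144 CPM, and Tbx3, a transcription factor that Wnt signalling switches on, 26.2 and 13.4 CPM. All 4 were lower in HFD, and each also kept a zone gradient above 0 in both sections (for Slc1a2 2.23 in NCD and 2.78 in HFD). Other members did not share the lower level. Lect2, a secreted Wnt target, was at 314 CPM in NCD and 391 CPM in HFD, Slc13a3, a dicarboxylate carrier, at 36.3 and 67.3 CPM, and Gulo, the last enzyme of vitamin C synthesis, at 514 and 495 CPM. Of 20 pericentral genes left out of the score, 19 had enough UMIs; their median log2 ratio of HFD to NCD was -0.46 in pericentral spots, beside 0.19 for all 6374 genes with at least 200 UMIs over the pericentral spots of both sections. Since that median lies above 0, a log2 ratio of 0.19 is where the typical gene stood. The median of the 19 pericentral genes kept its sign over 17 alternatives, which ran from -0.82 to -0.009. The HFD set was cut at a lower score than the NCD set, 4.06 against 5.0. Among the Wnt signals themselves, Wnt2 of the endothelium around the central vein had 7.41 CPM in NCD and 13.1 CPM in HFD, with a log2 ratio of 0.83 (0.32 to 1.36), and Rspo3, which amplifies Wnt signals, had 17.3 and 15.6 CPM, with an interval that included 0 (-0.51 to 0.22).

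Differences in the zone gradients of the pericentral score genes were smaller after drawing down, which also chose the spots anew. That of Slc1a2 and the median over the pericentral genes left out of the score changed sign. The log2 ratio of HFD to NCD in pericentral spots minus that in the other spots (below, the zone difference) was 0.37 for Cyp2e1, 0.84 for Cyp1a2, 0.73 for Oat and 0.20 for Glul, given as a description since these genes chose the spots. With all spots drawn down to 3000 UMIs these values became 0.13, 0.52, 0.40 and 0.01. The zone difference of Slc1a2 went from 0.55 to -0.22. Over the 19 pericentral genes left out of the score the median was 0.08, and -0.21 after drawing down. The sign of these small values was not stable: that of Glul was kept in 13 of 18 alternatives, which ran from -0.61 to 0.48, and that of the median in 12 of 17, which ran from -0.38 to 0.12. The lowest value of both came with the off-tissue profile subtracted.

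Across all genes, HFD and NCD differed mostly in the same way in both zones. A gene was counted where its log2 ratio was at least 1 in size and its interval left out 0. By this rule 509 of 6374 genes (7.99%) were higher and 112 (1.76%) were lower in pericentral spots of HFD. With the median of genes set to 0, which takes away the typical ratio of 0.19, the counts were 318 higher and 166 lower, so the higher genes made up 82.0% of the genes counted as reported and 65.7% on that scale. All 509 also had a ratio above 0 in the other spots, and 339 of them were at least 2-fold higher there too. All 112 lower genes had a ratio below 0 in the other spots, and 89 were at least 2-fold lower there. HFD was the deeper section, so the minimum of 200 UMIs admits genes that are high in HFD more readily than genes that are high in NCD. The counts of genes that differ by zone were smaller: 171 genes (2.68%) had a zone difference of at least 0.5 and 123 genes (1.93%) one of -0.5 or lower, with intervals that left out 0. These intervals were not adjusted for the number of genes. Among the 2125 genes with at least 1000 UMIs, where counting error is small, 41 lay above (1.93%) and 30 below (1.41%). After drawing down, 153 of the 171 and 112 of the 123 kept their sign.

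**Figure D2:**
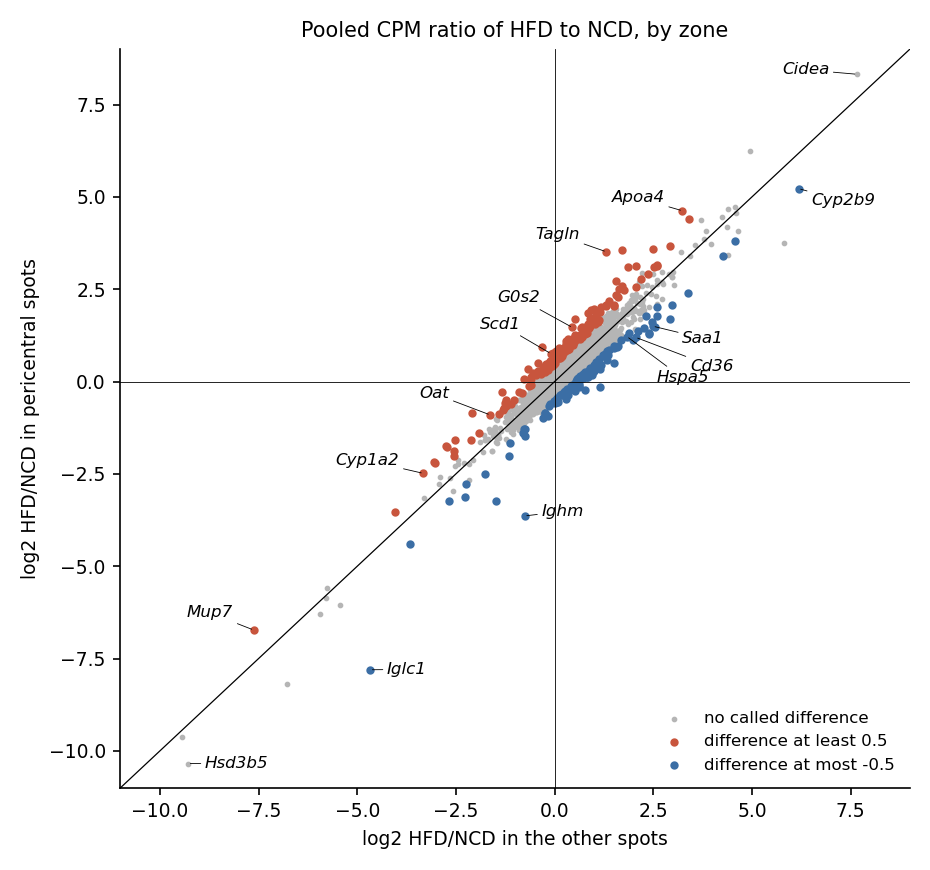
Log2 ratio of HFD to NCD (pooled CPM) in the other spots (horizontal axis) and in pericentral spots (vertical axis), 1 point per gene with at least 200 UMIs and UMIs in both sections; the diagonal marks equal ratios. Red points have a zone difference of at least 0.5 and blue points one of -0.5 or lower; most genes lie near the diagonal, Scd1, G0s2 and Apoa4 above it, and Saa1, Hspa5 and Cd36 below it.

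The 10 highest finite pericentral ratios included those of Cidea, Cidec, Cyp2b9 and Cdkn1a. Cidea, which enlarges lipid droplets, had 1 UMI in NCD and 848 UMIs in HFD pericentral spots, a log2 ratio of 8.32 (5.84 to 13.63). Its partner Cidec had 5.89 CPM in NCD and 130 CPM in HFD. Cyp2b9, a P450 of female and fasted liver, had 7.03 CPM in NCD and 263 CPM in HFD, and Cyp2b13 had 0 UMIs in NCD and 800 in HFD, at least 6.65 higher on the log2 scale against a floor of 3 UMIs. Cdkn1a, the cell cycle inhibitor p21, had 1.71 and 43.4 CPM. Gpnmb, a glycoprotein of lipid-laden macrophages, had 3 UMIs in NCD and 212 in HFD, a log2 ratio of 4.74 (3.17 to 7.03). Apoa4, described below, and Ly6d, Rgs16, Gsta1 and Hao2 completed the 10 highest with a finite ratio, the last 4 with log2 ratios of 4.57, 4.42, 4.37 and 6.25. Of these, Hao2 had 1 UMI in NCD, and its interval ran from 3.75 to 11.56. Gsta1 is near-identical to Gsta2, so reads may have been split between them.

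The lowest ratios included those of Hsd3b5, Slco1a1, Cyp4a12b and several major urinary protein genes. Hsd3b5, a steroid dehydrogenase of male liver, had 490 UMIs in NCD and 1 UMI in HFD pericentral spots (log2 ratio -10.34, -15.65 to -7.86). Slco1a1, a male-biased anion uptake carrier, had 888 and 3 UMIs (log2 ratio -9.61, -11.89 to -8.06). Cyp4a12b, a male-biased fatty acid hydroxylase, had 444 and 4 UMIs. The Y-linked genes Ddx3y, at 31.5 CPM in NCD and 26.5 CPM in HFD, and Eif2s3y, at 33.3 and 30.3 CPM, were present in both sections. Of 18 major urinary protein genes, whose products carry pheromones, 12 had enough UMIs. Of these 10 were at least 2-fold lower in HFD, against 1.76% of all genes. Mup7 stood at 1854 and 17.5 CPM, Mup9 at 1174 and 15.0 CPM, and Mup11 at 2179 and 37.6 CPM. Mup20 went the other way, with 3510 CPM in NCD and 6907 CPM in HFD. These genes lie in a cluster of near-identical copies, so the share of each copy is uncertain. Summed over all 18 genes, the level was 18752 CPM in NCD and 10214 CPM in HFD pericentral spots, a log2 ratio of -0.88. Serpina1e, a protease inhibitor with close copies, had 740 and 35.0 CPM, and the predicted gene Gm3734 had 84.8 and 1.29 CPM. Off tissue, Serpina1e stood at 2006 CPM in NCD and 85.9 CPM in HFD. Subtracting the off-tissue profile left Serpina1e UMIs in HFD pericentral spots but none in NCD, so its lower level in HFD was not kept. The low ratio of Iglc1, an immunoglobulin light chain, rested on few spots and is described with the immune genes.

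Among the drug-metabolising P450s, most Cyp2c genes and Cyp3a11 were lower in HFD. Most of the Cyp2a and Cyp2b genes with enough UMIs were higher. Of 14 Cyp2c genes 9 had enough UMIs; 6 were at least 2-fold lower, against 1.76% of all genes, and none were at least 2-fold higher, with a median log2 ratio of -1.48 in pericentral and -0.86 in other spots. Cyp2c29 had 1322 CPM in NCD and 452 CPM in HFD, Cyp2c50 had 1367 and 374 CPM, and Cyp2c54 had 426 and 8.83 CPM. Cyp2c38 was at 90.5 CPM in NCD and 162 CPM in HFD. Cyp3a11, the main Cyp3a enzyme of mouse liver, had 6931 and 2328 CPM. It was the 1 of 4 Cyp3a genes with enough UMIs that was at least 2-fold lower, against 1.76% of all genes. Cyp3a25 had 697 and 362 CPM and Cyp3a13 118 and 74.6 CPM. Of 7 Cyp2a and Cyp2b genes 5 had enough UMIs, and 4 of these were at least 2-fold higher, against 7.99% of all genes. The median log2 ratio was 3.39 in pericentral and 4.28 in other spots. Cyp2b9, Cyp2b13 and Cyp2a22 reached the UMI minimum through their HFD UMIs, so this count and median depend on the filter. Summed over all 7 genes, the level was 1226 CPM in NCD and 1416 CPM in HFD pericentral spots, a log2 ratio of 0.21. Beside the Cyp2b genes above, Cyp2a22 had 5.70 and 59.7 CPM and Cyp2a12 178 and 374 CPM. Cyp2a5, which oxidises coumarin, had 1028 and 652 CPM, a log2 ratio of -0.66. Por, the reductase that gives electrons to these enzymes, had 618 and 375 CPM, a log2 ratio of -0.72 (-0.78 to -0.66). The receptors that control them were nearer to each other: Nr1i3 had 170 CPM in NCD and 161 CPM in HFD, Nr1i2 27.6 and 43.1 CPM, and Ahr 34.2 and 44.9 CPM. For Cyp2c37 and Cyp2c50 the pericentral decrease was smaller than that in other spots, with zone differences of 0.53 and 0.66, which were 0.19 and 0.37 after drawing down and 0.06 and 0.37 with the off-tissue profile subtracted. Over the 9 Cyp2c genes the median zone difference was 0.17, with 5 above 0, and it was -0.28 with the off-tissue profile subtracted. Cyp2c70, which makes muricholic acid, differed in the opposite direction, with a log2 ratio of -1.48 in pericentral and -0.75 in other spots.

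Genes of fatty acid synthesis were higher in HFD, and more so in pericentral than in other spots. Of the 19 genes 18 had enough UMIs, and 9 were at least 2-fold higher in pericentral spots of HFD, against 7.99% of all genes. None were at least 2-fold lower, against 1.76%, and 7 had a zone difference of at least 0.5, against 2.68%. Scd1, which makes monounsaturated fatty acids, had 4096 CPM in NCD (4042 to 4151) and 6932 CPM in HFD (6889 to 6976) in pericentral spots, but 6042 and 5657 CPM in the other spots. The gene was thus higher in HFD in the pericentral zone and slightly lower elsewhere. Over single pericentral spots Scd1 ran from 1297 CPM through a median of 3865 to 15344 CPM in NCD, and from 1860 through 6809 to 13593 CPM in HFD, so single spots of the sections overlapped. Its zone gradient was -0.56 in NCD and 0.29 in HFD. Across 5 equal groups of spots ordered by score, from periportal to pericentral, Scd1 went from 6205 to 4096 CPM in NCD and went from 4663 to 6932 CPM in HFD.

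Other enzymes of the pathway were higher in both zones with a surplus in the pericentral zone. Fasn, the fatty acid synthase, had 41.4 CPM in NCD and 176 CPM in HFD pericentral spots, and a zone difference of 0.59 (0.36 to 0.81). Thrsp, a nuclear activator of fat synthesis, had 45.6 and 410 CPM (zone difference 0.57). Elovl5 and Fads1, which lengthen and desaturate fatty acids, had zone differences of 0.52 and 0.58. After drawing down, the zone differences of Thrsp, Elovl5 and Fads1 were 0.19, 0.37 and 0.43. Elovl6, which extends palmitate, stood at 0.57 (0.33 after drawing down), and Acacb, which makes the malonyl-CoA that restrains fatty acid oxidation, at 0.62. Of the 18 genes 17 had a zone difference above 0, beside 3058 of all 6374; Acly, at -0.01 (-0.26 to 0.24), was the exception. The median zone difference of the list was 0.35, beside -0.01 for all genes, and it was 0.25 after drawing down and 0.58 after subtraction of the off-tissue profile. The regulators Srebf1 and Mlxipl were both at a log2 ratio of 1.03 in pericentral spots, with 28.7 and 58.6 CPM for Srebf1. Lpin1, which makes diacylglycerol, was far higher in HFD in both zones (log2 ratio 3.86 in pericentral and 3.78 in other spots).

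**Figure D3:**
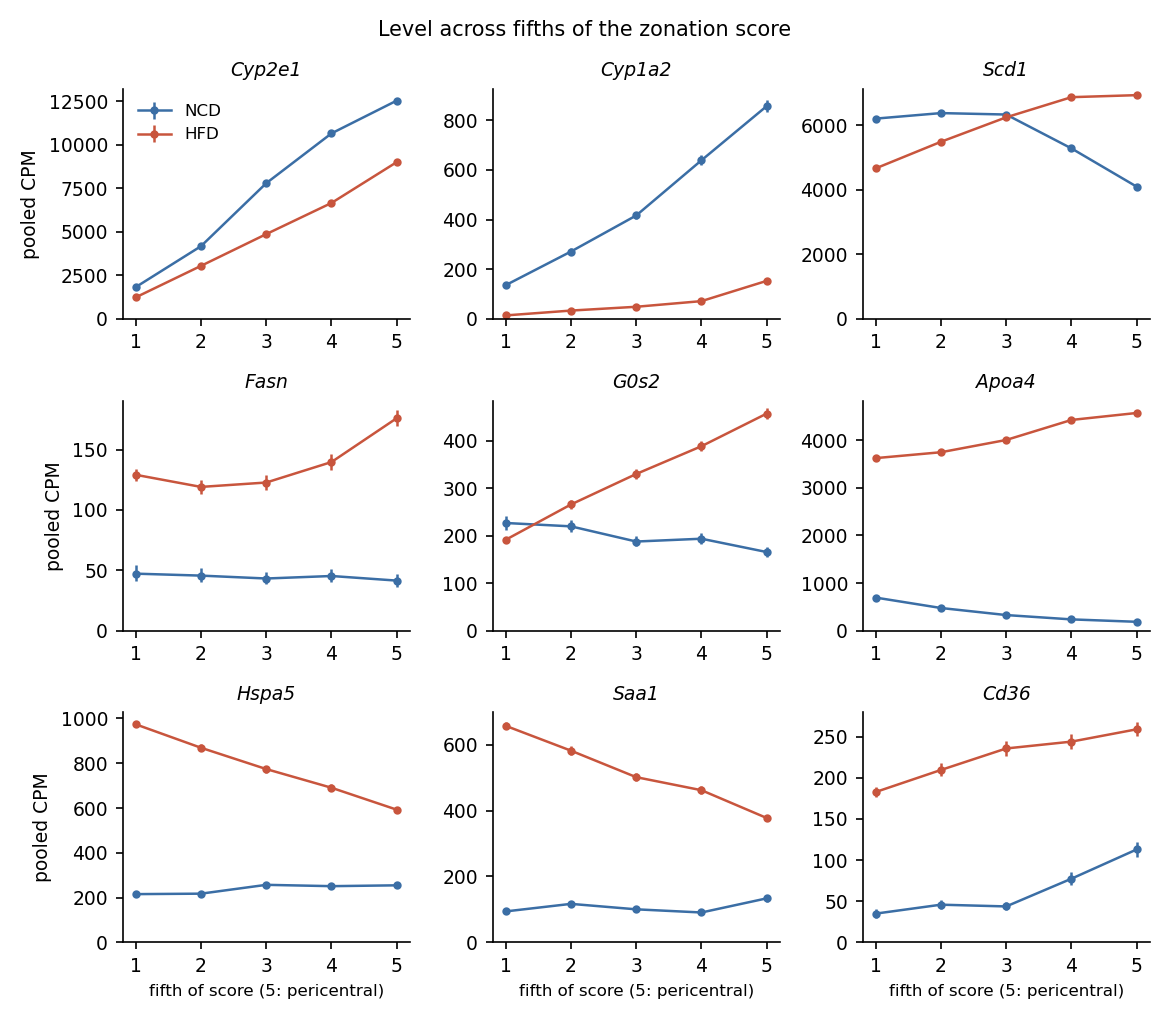
Pooled CPM (vertical axis, 95% Poisson interval) of 9 genes in 5 equal groups of spots by zonation score (horizontal axis, 5 is the pericentral set) in the NCD and the HFD section. Scd1 and G0s2 declined towards the pericentral group in NCD and climbed in HFD; Hspa5 and Saa1 declined in HFD and not in NCD, and Cyp2e1 and Cyp1a2 climbed in both sections.

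Lipid droplet genes were higher in HFD, and most of them by a similar factor in both zones. Of 17 genes 15 had enough UMIs and 8 were at least 2-fold higher in pericentral spots, against 7.99% of all genes, with a median log2 ratio of 1.10 in pericentral and 0.96 in other spots. Cidea and Cidec reached the UMI minimum through their HFD UMIs, so this count and median depend on the filter. Summed over all 17 genes, the level was 1505 CPM in NCD and 3143 CPM in HFD pericentral spots, a log2 ratio of 1.06. Plin2, the main droplet coat protein of hepatocytes, had 432 and 802 CPM in pericentral spots, and its zone difference of 0.07 (-0.01 to 0.14) included 0. G0s2, which blocks the droplet lipase Pnpla2, was an exception, with 166 CPM in NCD and 457 CPM in HFD in pericentral spots and 205 and 280 CPM in other spots. Its zone difference was 1.01 (0.90 to 1.13), and 0.66 after drawing down. The level of G0s2 climbed from 191 CPM in the lowest to 457 CPM in the highest score group of the HFD section, and ran from 227 down to 166 CPM in NCD. Pnpla2 itself had 90.1 and 79.3 CPM in pericentral spots. Hsd17b13, a droplet protein of periportal cells in both sections, had 87.4 and 427 CPM in pericentral spots (zone difference 0.68).

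Apoa4, an apolipoprotein of triglyceride-rich particles, was far higher in HFD and lay among the 10 highest pericentral ratios. Apoa4 had 185 CPM in NCD (174 to 197) and 4576 CPM in HFD (4540 to 4612) in pericentral spots, and 414 and 3907 CPM in other spots. The median pericentral spot held 163 CPM in NCD and 4435 CPM in HFD, the lowest HFD spot 840 CPM and the highest NCD spot 777 CPM, so the spots of the sections did not overlap. Its zone gradient was -1.16 in NCD and 0.23 in HFD, and its zone difference of 1.39 (1.29 to 1.48) was 1.24 after drawing down. Off tissue, Apoa4 stood at 439 CPM in NCD and 3306 CPM in HFD. Subtracting the off-tissue profile left no Apoa4 UMIs in NCD pericentral spots. Its pericentral ratio and zone difference therefore had no finite value with that subtraction, and its NCD pericentral level cannot be told apart from off-tissue RNA. The other apolipoproteins did not share this pattern, and the median zone difference over 16 genes of lipoprotein assembly was 0.12. Fabp1, the fatty acid carrier of the hepatocyte cytosol, had 9847 and 14537 CPM in pericentral spots against 9560 and 10743 CPM in other spots.

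Genes of cholesterol synthesis had smaller differences, while the targets of PPAR alpha, the fatty acid sensor of hepatocytes, differed in both directions. Of 24 cholesterol genes 19 had enough UMIs and 1 was at least 2-fold higher, against 7.99% of all genes. This was Dhcr7, the last enzyme of the pathway. A zone difference of at least 0.5 was found in 3 (Hmgcs1 0.64, Idi1 0.69 and Dhcr7 0.60), against 2.68% of all genes. The values of Hmgcs1 and Idi1 were 0.17 and 0.27 after drawing down. Of 18 PPAR alpha targets 14 had enough UMIs, of which 4 were at least 2-fold higher and 4 lower, against 7.99% and 1.76% of all genes. The omega-hydroxylases Cyp4a10, with 1571 and 626 CPM, and Cyp4a14, with 2396 and 885 CPM, were lower in HFD, while Ucp2, a mitochondrial carrier, was at 19.0 and 53.8 CPM. Acot3, a peroxisomal thioesterase, had 51.1 and 74.9 CPM in pericentral spots but 36.1 and 33.9 CPM in other spots (zone difference 0.64, 0.65 after drawing down and 0.29 with the off-tissue profile subtracted). Enzymes of fatty acid oxidation and ketone synthesis stood near the level of all genes. All 21 had enough UMIs and none were past 2-fold, where 7.99% of all genes were higher and 1.76% lower. The median log2 ratio was 0.11 in pericentral and 0.12 in other spots.

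Chaperones of the endoplasmic reticulum, which fold secreted proteins, differed in the opposite direction. All 15 had enough UMIs, and all 15 had a zone difference below 0, beside 3315 of all 6374 genes; 6 were at -0.5 or lower, against 1.93% of all genes. Hspa5, the chaperone BiP, had 255 CPM in NCD (241 to 269) and 593 CPM in HFD (580 to 605) in pericentral spots, and 237 and 847 CPM in other spots. It was therefore higher in HFD in both zones, with the smaller gap near the central vein (zone difference -0.62, -0.71 to -0.52). Across the 5 score groups Hspa5 went from 974 to 593 CPM in HFD and from 215 to 255 CPM in NCD. Sdf2l1, Creld2 and Manf, which assist BiP or are secreted with stress, had zone differences of -1.05, -0.89 and -0.57, and the disulphide isomerases Pdia4 and Pdia6 of -0.52 and -0.50; that of Sdf2l1 was -0.46 after drawing down. The median of the list was -0.47, and -0.46 after drawing down. Herpud1, which serves protein removal from the reticulum, had 199 and 732 CPM in pericentral spots and a zone difference of -0.08 (-0.18 to 0.02).

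These chaperones have a known control element in common, and their promoters are shown for that reason. RefSeq promoters on GRCm38.p6 were found for 13 of the 15 genes, and the 250 bases before the start were searched on both strands for the endoplasmic reticulum stress element, CCAAT and CCACG with 9 bases of any kind between them. It was found in 6 of the 13 (Calr, Canx, Creld2, Hsp90b1, Hspa5 and Pdia6), in 1 of 15 promoters of the fatty acid synthesis list, in 0 of 18 of the acute phase list and in 0.122% of the promoters of 27025 genes. Matches are a description of the letters only. In the 3 sequences, of genes with a zone difference of -0.5 or lower, capitals mark the fixed letters of the element, which lies on the opposite strand in Creld2. The regions are chr2:34771840-34772089 (plus strand) for Hspa5, chr15:88819396-88819645 (plus strand) for Creld2 and chr12:17266339-17266588 (plus strand) for Pdia6.
Hspa5: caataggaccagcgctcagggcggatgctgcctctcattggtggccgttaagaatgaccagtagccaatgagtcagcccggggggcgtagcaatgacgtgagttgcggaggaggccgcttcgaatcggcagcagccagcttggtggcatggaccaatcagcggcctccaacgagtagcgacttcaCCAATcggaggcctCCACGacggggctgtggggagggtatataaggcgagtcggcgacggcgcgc
Creld2: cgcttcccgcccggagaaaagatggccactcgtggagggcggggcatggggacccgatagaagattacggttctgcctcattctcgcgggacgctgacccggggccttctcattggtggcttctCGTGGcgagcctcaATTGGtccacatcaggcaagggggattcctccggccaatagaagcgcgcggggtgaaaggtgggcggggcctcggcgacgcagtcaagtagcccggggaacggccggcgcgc
Pdia6: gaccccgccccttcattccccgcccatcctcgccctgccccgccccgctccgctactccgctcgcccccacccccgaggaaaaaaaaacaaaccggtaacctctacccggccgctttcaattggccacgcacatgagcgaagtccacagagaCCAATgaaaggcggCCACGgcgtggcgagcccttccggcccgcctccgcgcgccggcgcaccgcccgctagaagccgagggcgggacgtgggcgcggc

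Acute phase proteins, which the liver secretes in inflammation, also had a smaller gap near the central vein. All 21 genes had enough UMIs, 9 were at least 2-fold higher in pericentral spots of HFD, against 7.99% of all genes, and 6 had a zone difference of -0.5 or lower, against 1.93%. The median log2 ratio was 0.32 in pericentral and 1.08 in other spots, and the median zone difference was -0.24, with 2 genes above 0 and 19 below. Lcn2 and Orm2 reached the UMI minimum through their HFD UMIs, so these counts and medians depend on the filter. Summed over all 21 genes, the level was 16082 CPM in NCD and 18136 CPM in HFD pericentral spots, a log2 ratio of 0.17. Saa1, serum amyloid A, had 134 CPM in NCD (124 to 144) and 378 CPM in HFD (368 to 388) in pericentral spots, and 100 and 565 CPM in other spots (zone difference -0.998). Saa2, its near-identical neighbour with which it may share reads, had a zone difference of -1.21, and Orm2 and Orm3, orosomucoids, of -0.82 and -0.81. Lcn2, an iron-binding defence protein, had 8.36 and 116 CPM in pericentral spots and 7.68 and 181 CPM in other spots. In NCD the top 1% of pericentral spots, 4 spots, held 30.3% of the Saa1 UMIs and 47.8% of the Saa2 UMIs, against 7.45% and 10.1% in HFD, so the NCD level rested on few spots. The lowest values of the zone difference over the alternatives were -1.44 for Saa1 and -1.80 for Saa2, and the highest were -0.71 and -0.78. Hp, haptoglobin, had 1796 and 4127 CPM (zone difference -0.25), while C3, the central complement protein, was lower in HFD, with 3413 and 2037 CPM.

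**Figure D4:**
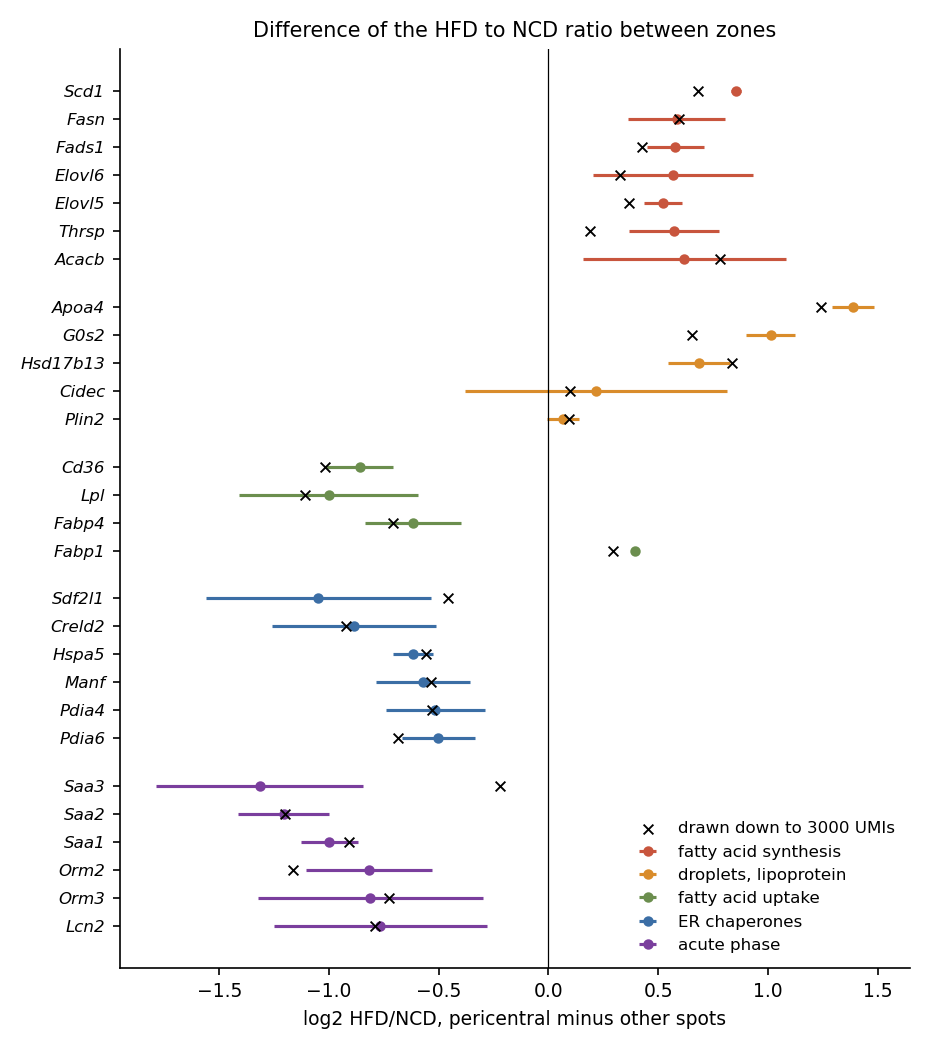
Zone difference (horizontal axis, log2 ratio of HFD to NCD in pericentral minus other spots) of genes in 5 groups, with 95% counting intervals; crosses are values after all spots were drawn down to 3000 UMIs. The fatty acid synthesis genes shown lie above 0, from Elovl5 at 0.52 to Scd1 at 0.85. The chaperones and acute phase genes shown lie below 0. From these lists only genes with a zone difference of at least 0.5 in size are shown. Others, such as Acly and Herpud1, lay nearer 0.

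Lipid uptake genes were split. Cd36, which takes up fatty acids, had 113 CPM in NCD and 259 CPM in HFD in pericentral spots, and 51.2 and 213 CPM in other spots. Its level was higher in HFD everywhere, and its pericentral excess over the other spots was larger in NCD (zone gradient 1.14) than in HFD (0.28). Lpl, the lipoprotein lipase, and Fabp4, a fatty acid carrier of macrophages and vessels, also had zone differences below -0.5 (-1.002 and -0.62). Vldlr, a lipoprotein receptor, had 5.51 and 13.6 CPM in pericentral spots and a zone gradient of 2.06 in NCD and 2.44 in HFD. Aldh1a1, a retinal dehydrogenase of pericentral cells, had 1663 and 1885 CPM in pericentral spots and 1031 and 1690 CPM in other spots, a zone difference of -0.53. Igfbp1, a binding protein of insulin-like growth factors, was lower in HFD in pericentral spots (169 and 121 CPM) and higher in other spots (131 and 161 CPM).

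Genes of bile acid synthesis and of the response to low oxygen were not set apart from all genes by their counts past 2-fold. Of all genes, 7.99% were at least 2-fold higher and 1.76% at least 2-fold lower. Of 12 bile acid synthesis genes, Cyp7b1 was the 1 past 2-fold, with 231 and 56.9 CPM, and Cyp7a1, the rate-limiting enzyme, had 76.4 and 52.0 CPM. Of 15 genes that respond to low oxygen, 10 had enough UMIs and none were past 2-fold; Vegfa had 34.4 and 30.7 CPM. Of the urea cycle genes Cps1, with 1277 and 523 CPM, and Asl, with 562 and 247 CPM, were at least 2-fold lower in pericentral spots, where they are scarce; their log2 ratios of -1.29 and -1.18 became -0.65 and 0.17 with the off-tissue profile subtracted. By contrast, p53 and amino acid stress genes were higher in HFD in both zones. Of 15 p53 and amino acid stress genes 9 had enough UMIs and 6 were at least 2-fold higher, against 7.99% of all genes. The median log2 ratio was 1.62 in pericentral and 1.65 in other spots, beside 0.19 and 0.21 for all genes. Cdkn1a and Gdf15 reached the UMI minimum through their HFD UMIs, so this count and median depend on the filter. Summed over all 15 genes, the level was 263 CPM in NCD and 508 CPM in HFD pericentral spots, a log2 ratio of 0.95. Gdf15, a stress hormone, was at 3.42 and 57.7 CPM; Ccng1 was the 1 with a zone difference of at least 0.5.

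**Figure D5:**
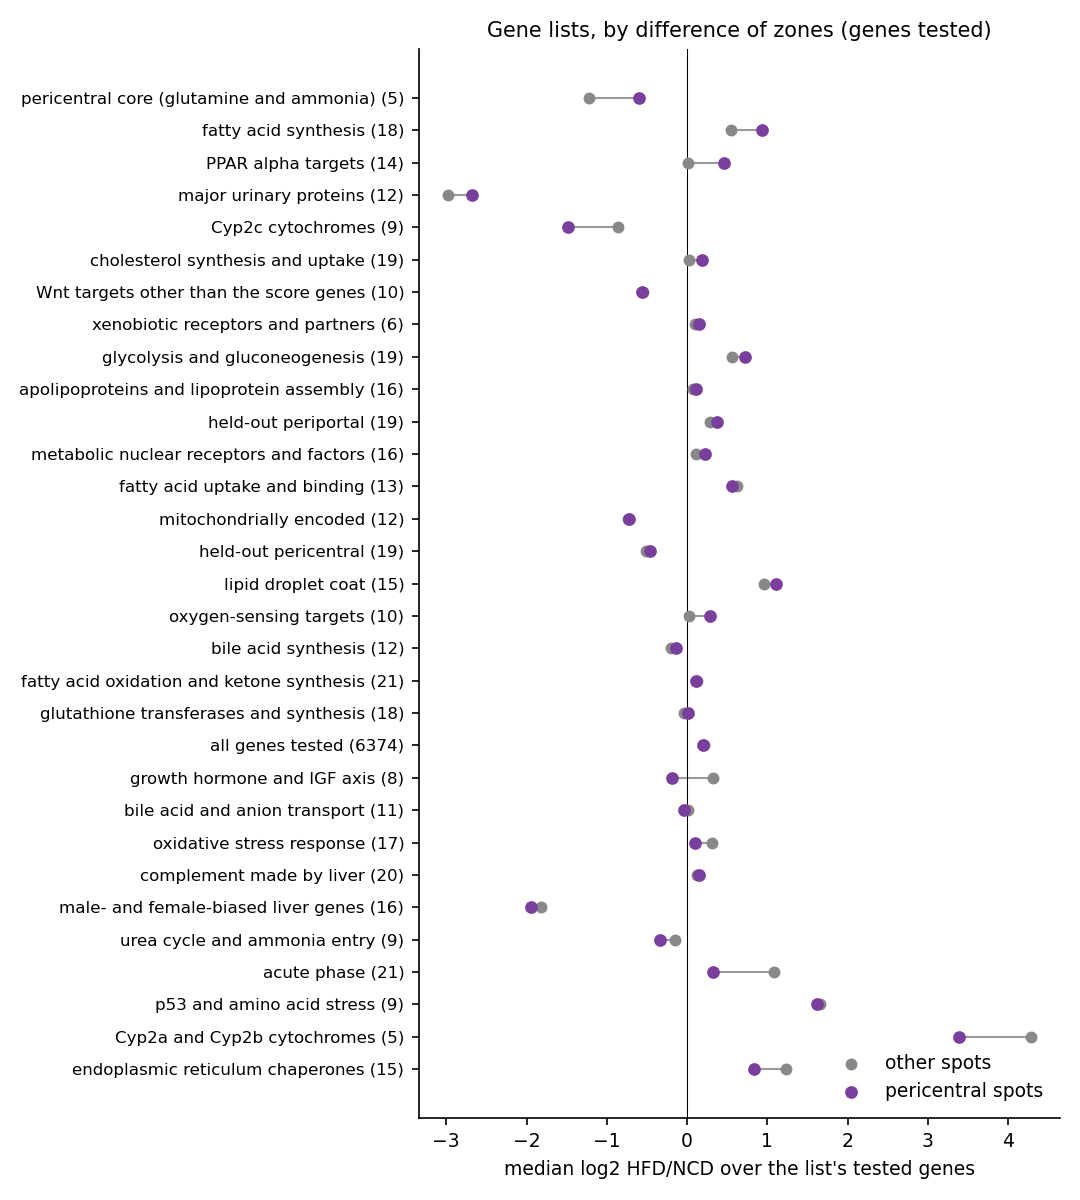
Median log2 ratio of HFD to NCD in pericentral spots (purple) and in the other spots (grey) for each gene list with at least 5 genes above the UMI minimum, ordered by the median zone difference; the number in brackets counts the genes. Fatty acid synthesis stands at 0.93 and 0.54, acute phase at 0.32 and 1.08, and endoplasmic reticulum chaperones at 0.84 and 1.23.

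Spots hold other cells than hepatocytes, and in pooled spots fewer cells of a type and less RNA per cell cannot be told apart. The summed markers of sinusoidal endothelium stood at 260 CPM in NCD and 448 CPM in HFD pericentral spots, those of macrophages at 429 and 698 CPM, and those of stellate cells and fibroblasts at 456 and 813 CPM. Single spots ran from 0 to 3761 CPM in NCD and from 0 to 3457 CPM in HFD for the macrophage markers. All 11 endothelial genes with enough UMIs had a zone difference above 0, beside 3058 of all 6374, and in 2 of them, Oit3 and Lyve1, it was at least 0.5 with an interval that left out 0, against 2.68% of all genes; these were -0.10 and 0.37 after drawing down. No marker of neutrophils, monocytes or T cells reached 200 UMIs. Their part in the other results was not tested.

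Immunoglobulin genes had the largest negative zone differences, and these rested on few spots. Iglc1 had 353 CPM in NCD and 1.58 CPM in HFD, Ighm 94.6 and 7.61 CPM, and Jchain 39.2 and 4.16 CPM in pericentral spots. In NCD 4 of 421 spots held 97.7% of the Iglc1, 93.8% of the Ighm and 87.4% of the Jchain UMIs. Without the 2% of spots richest in immunoglobulin and the 2% richest in smooth muscle UMIs, the zone differences of Iglc1 and Ighm were 0.70 and 0.74 in place of -3.13 and -2.88, and that of Jchain was -0.42 in place of -1.74. Igha, another immunoglobulin, had a zone difference of 1.05 with all spots and -0.10 without those spots.

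Haemoglobin and vessel wall transcripts also differed by zone. Hbb-bs had 2063 CPM in NCD and 687 CPM in HFD in pericentral spots and 3350 and 582 CPM in other spots, so its level was higher in NCD in both zones; the haemoglobin genes are near-identical pairs that may share reads. Tagln, a smooth muscle protein, had 7 UMIs in NCD and 212 in HFD pericentral spots, which is 1.33 and 15.2 CPM, against 13.5 and 33.6 CPM in other spots. After drawing down, no NCD pericentral spot held a Tagln UMI. Spp1, osteopontin of bile duct cells and macrophages, had 7.22 and 63.4 CPM in pericentral and 52.2 and 216 CPM in other spots. Gpc1, a heparan sulphate proteoglycan, had 12 UMIs in NCD and 375 in HFD, with a zone difference of 1.86 (0.99 to 2.72), and Sulf2, which trims heparan sulphate, 11 and 193 UMIs (1.17, 0.26 to 2.08). C4a, near-identical to C4b, Ptp4a3, Fam47e and Gm35986 had zone differences of 1.25, 1.19, 1.03 and 1.26 on 20, 22, 23 and 33 NCD UMIs, of which the value of Gm35986 was 0.34 and that of C4a 0.24 after drawing down. Subtracting the off-tissue profile left no NCD pericentral UMIs of Tagln, Spp1, Gpc1, Sulf2 or C4a. Their zone differences had no finite value with that subtraction, and their NCD pericentral levels cannot be told apart from off-tissue RNA. At the other end stood Ubd, a ubiquitin-like protein induced by interferon and TNF, at -1.11, Tnfrsf12a, the TWEAK receptor, at -1.06, Alcam, an adhesion protein, at -1.02, Ifi27l2b at -0.98 and Saa3 at -1.32; those of Alcam and Saa3 were -0.24 and -0.22 after drawing down.

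The pericentral spots were not uniform. The innermost 105 NCD and 176 HFD spots, those in the top 5% by score, were set against the rest of the pericentral set as a description, since the score chose them. Glul had 2659 CPM in the innermost and 1694 CPM in the remaining spots of NCD, and 2200 and 900 CPM in HFD. In HFD the innermost spots had 215 CPM of Fasn against 161 CPM in the rest, a log2 ratio of 0.42 (0.30 to 0.54), while in NCD they had 28.5 against 45.2 CPM (-0.66, -1.24 to -0.13). Scd1 was lower in the innermost spots of both sections, with 3654 against 4226 CPM in NCD and 6299 against 7181 CPM in HFD. G0s2 was level within the HFD set, at 452 and 459 CPM.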

How the data were processed

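Visium libraries were made from 1 NCD and 1 HFD liver section. The authors aligned the reads, counted UMIs per gene and spot and called spots over tissue with Space Ranger 1.3.1; the deposited counts are raw, and the labels name build mm10. Duplicates of a molecule were merged by UMI. Genes with shared sequence may lose or share reads. UMIs were summed over spots and divided by the total of the spots (CPM). Intervals were exact Poisson for levels, exact conditional binomial for ratios and log-normal on 4 counts for zone differences, at 95%, and cover counting error only. A gene needed 200 UMIs over the pericentral spots of both sections; the table holds 32285 genes. Named genes were the score genes, the 10 highest and 10 lowest finite pericentral ratios, the 12 highest and 12 lowest zone differences that kept their sign after drawing down, and members of 46 lists (31 pathway, 15 cell type). Members and lists were chosen with earlier results of these data known. Of the barcodes over tissue, 3173 occur in both sections and 67 among the pericentral spots; they name slide positions. Spot images and coordinates were not used here. No count model could be used with 1 section per diet. Random draws used seed 1. The scripts, run in Python (version 3.11.15) with matplotlib 3.10.9, pandas 2.3.3, scipy 1.17.1 and numpy 2.4.6, were tested on simulated data. The 31 alternatives changed the score, cut, depth, total, filter and spots; 2 were chosen after seeing the data.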

Additional observations from a re-analysis of the deposited data

Results flagged for a closer look

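In 7 of the 6374 genes the zone gradient pointed in opposite directions in the NCD and the HFD section, by at least 0.3 on the log2 scale in both and with intervals that left out 0. With 1 section per diet this difference was not tested. Higher in pericentral spots of NCD and lower in those of HFD were Saa2 (zone difference -1.21, gradients 0.60 and -0.61), Lpl (-1.002, gradients 0.50 and -0.50), Saa1 (-0.998, gradients 0.42 and -0.58) and Igfbp1 (-0.77, gradients 0.37 and -0.40). The opposite order was seen in G0s2 (zone difference 1.01, gradients -0.31 and 0.71), Hba-a1 (1.00, gradients -0.70 and 0.30) and Hbb-bt (1.25, gradients -0.86 and 0.39). In NCD the top 1% of pericentral spots, 4 spots, held 47.8% of the Saa2 and 30.3% of the Saa1 UMIs, and in HFD the top 1% held 29.3% of the Hbb-bt and 28.4% of the Hba-a1 UMIs. Without the 1% of spots richest in each gene in both zones of each section, a choice made after seeing the data, the NCD and HFD gradients were 0.04 and -0.59 for Saa2, with an NCD interval that included 0, 0.15 and -0.56 for Saa1, -0.71 and 0.15 for Hba-a1, and -0.80 and 0.26 for Hbb-bt. Those of Lpl were 0.54 and -0.57, of Igfbp1 0.37 and -0.39, and of G0s2 -0.31 and 0.71. With any size of gradient, 117 genes had opposite gradients whose intervals left out 0.

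Spots off tissue, which were used only for the profile subtracted in 1 alternative, held a mean of 5285 UMIs per spot in NCD and 1557 UMIs per spot in HFD.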

How the results depend on the processing

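No paired analysis was possible because each diet had 1 section. Of 88 recomputed counts 61 lay within 1.5 times the reported 509 higher, 112 lower, 171 above and 123 below. With all spots drawn down to 3000 UMIs, which left 1929 genes tested, the counts were 106, 71, 31 and 39; with a gene minimum of 50 UMIs 1130, 205, 294 and 277; with a minimum of 1000 UMIs 121, 74, 41 and 30; and with 1 UMI in each section 1353, 367, 336 and 415. With the NCD score cut in both sections 319 genes were higher and 97 above. With the median of genes set to 0, 318 were higher and 166 lower. With the off-tissue profile subtracted 311 were above and 480 below. Against all spots 77 were above and 51 below, and against the lowest 20% of spots 312 and 355. A score of other genes gave 194 below, and the mean of CPM per spot 195 below.

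Of 3904 finite gene values 3861 kept their sign. Values for which no UMIs were left in a group of spots are not in this count. Among those left out are Apoa4, Serpina1e, Tagln, Spp1, Gpc1, Sulf2 and C4a with the off-tissue profile subtracted. The zone difference reversed with the top 10% of spots in Cyp2a22 (0.29), Cyp2b9 (0.0826), Iglc1 (2.88) and Jchain (0.70), and with the top 30% in Igkc (0.0165). After drawing down it reversed in Adgre1 (-0.0403), Oit3 (-0.10) and Slc1a2 (-0.22). It reversed in Vwf with Oat and Glul alone as numerator (-0.0751), and in Igfbp3 (-0.28) and Vwf (-0.56) with a score of other genes. With the off-tissue profile subtracted, the pericentral ratio of Asl was 0.17, the zone difference of Slc1a2 -0.0923 and the median of the pericentral core genes -0.0923. Without the spots rich in immunoglobulin and muscle UMIs, a choice made after seeing the data, Igha stood at -0.10, Ighm at 0.74, Iglc1 at 0.70 and the B and plasma cell median at 0.14. The cause of these changes was not tested. The zone difference kept its sign in every alternative with a finite value for Scd1 (0.68 to 1.71), Fasn (0.53 to 0.89), G0s2 (0.66 to 1.29), Apoa4 (1.24 to 1.47), Cd36 (-1.36 to -0.83) and Hspa5 (-0.71 to -0.56). For Apoa4 the subtraction of the off-tissue profile gave no finite value and is not among these. Genes with few UMIs in the shallower NCD section are limited by depth.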
